A study of Homo sapiens with 60 samples.

Results

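The genes CA9, VEGFA, ADM, NDRG1, EGLN3, BNIP3, ANKRD37, PDK1, PFKFB4 and P4HA1 are 10 of 60675 gene IDs measured by RNA sequencing in HT29 cells, an established human colorectal adenocarcinoma line. They were taken as a set of hypoxia-type genes because CA9 and VEGFA lay in opposite directions with Coptidis Rhizoma. That choice rests on measured values, so the values of the members with Coptidis Rhizoma are given as a description, and no test of them is given. All 10 genes were among the 16022 that passed the filter on low counts.

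Cells were exposed for 24 h to ethanol extracts (70% ethanol) of 6 single herbs and 2 herbal formulas, each at 3 doses, or to vehicle. Each dose had 3 libraries for Bupleuri Radix, Aconiti Lateralis Radix Preparata, Citri Unshius Pericarpium and Cimicifugae Rhizoma. It had 2 for Coptidis Rhizoma, Zizyphi Fructus and the formula Yijung-tang, and 1 for the formula Banhasasim-tang. Vehicle had 3. The low, medium and high dose of Coptidis Rhizoma was 12.8, 64 and 320 µg/mL, that of Bupleuri Radix 12.4, 62 and 310 µg/mL, and that of each other extract 20, 100 and 500 µg/mL. The sample labels give DMSO at 0.1% as vehicle and the series design gives 2%.

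Cells short of oxygen stabilise the alpha subunits of the hypoxia-inducible factors (HIF), which pair with ARNT and bind a short DNA core, the hypoxia response element, near their target genes. With oxygen, prolyl hydroxylases of the EGLN family mark the alpha subunits for breakdown. Many of these targets also answer to other signals, among them the amino acid and endoplasmic reticulum stress pathway that runs through ATF4, for which VEGFA is a known target. No label of these samples names a change in oxygen.

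The core, written ACGTG or GCGTG and searched on both strands, was looked for in the 250 bases before the RefSeq gene start (GRCh38.p14), because members that lay in opposite directions could be set beside their own promoters. RefSeq promoters matched 8 of the 10 genes, all but VEGFA and NDRG1. The 30 bases around the match, or around the closest group of matches, are shown 5′ to 3′ on the strand of the gene, with the core in capitals. A core on the opposite strand reads CACGT or CACGC, and matches on both strands overlap where CACGTG stands.
CA9: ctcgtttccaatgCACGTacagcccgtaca
PDK1: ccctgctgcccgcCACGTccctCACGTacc
PFKFB4: gtgagttgggcatGCGTGgtcggaggccgg
ADM: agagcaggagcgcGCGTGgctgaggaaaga
P4HA1: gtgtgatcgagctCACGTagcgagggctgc
BNIP3: cgcgCACGCgccgCACGTGccaCACGCacc
ANKRD37: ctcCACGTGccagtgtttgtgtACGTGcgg

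The sites lie at chr9:35673897-35673926 (CA9, plus strand), chr2:172556060-172556089 (PDK1, second of its starts, plus strand), chr3:48556953-48556982 (PFKFB4, minus strand), chr11:10304959-10304988 (ADM, plus strand), chr10:73096936-73096965 (P4HA1, minus strand), chr10:131982041-131982070 (BNIP3, minus strand) and chr4:185396676-185396705 (ANKRD37, plus strand). GENCODE 29 places an exon of the same gene over the cores of CA9, PDK1, ADM, P4HA1 and ANKRD37, and none over those of PFKFB4 and BNIP3. The window of EGLN3 and that before the first start of PDK1 held no core. A core stood in 43.2% of 35116 RefSeq promoter windows of the same length, and GCGTG is also the core read by the aryl hydrocarbon receptor. Genes that were lower with high-dose Coptidis Rhizoma (CA9, PDK1, PFKFB4) and some that were higher with it (ADM, BNIP3, P4HA1) held one. EGLN3, also higher, held none, and VEGFA and NDRG1, also higher, had no window. Whether a core bears on these directions was not tested. The composite letters TGATGNAA, typical of ATF4 sites, were in none of the windows of those 8 genes and in 3.14% of all windows. At that share a match in so few windows would be rare, and VEGFA had no window, so nothing is read from this.

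The libraries held 18.1 to 36.7 M counts, with a median of 24.1 M. The 12 epithelial markers summed to 9110 to 14600 CPM (counts scaled to library size) per library, carried by KRT8 and KRT18. EPCAM had a median of 520 CPM. The lowest of the list were CDX1, CDH17, CDX2 and CEACAM5, with medians of 1.09, 4.8, 5.74 and 5.75 CPM. The sum of 4 leukocyte markers was 1.96 to 4.71 CPM, carried by CD14, with PTPRC at 0 in 43 of 60 libraries, and that of 4 fibroblast markers was 0.874 to 3.93 CPM, carried by COL1A1. The sum of 3 endothelial markers was 0.188 to 2.52 CPM, carried by PECAM1, with CDH5 at 0 in 57 libraries. All titles name a single batch, D, but the library codes in the sample descriptions begin with 11 (Coptidis Rhizoma and Zizyphi Fructus), 12 (Citri and Cimicifugae), 13 (Bupleuri and Aconiti), 14 (both formulas) or D1 (vehicle). The labels do not say what these codes stand for, and libraries whose codes begin alike are called a set here. A difference from vehicle and a difference between sets cannot be told apart, while doses of an extract and extracts of a set were compared within a set. The library furthest apart is Zizyphi Fructus medium replicate 3, with a TMM scaling factor of 0.5665 and a correlation to its group mate of 0.9438. In the other groups with more than 1 library the correlation was at least 0.9912, the value of vehicle replicate 1. That vehicle library also stood apart from replicates 2 and 3, at a chi-square of counts per degree of freedom of 17.3 and 20.3. Between replicates 2 and 3 it was 4.61, and the median over 48 replicate pairs was 4.4. Replicates are not described as separate cultures, so the spread between them may be technical. In bulk RNA, fewer cells of a kind and less RNA per cell cannot be told apart.

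CA9, the membrane-bound carbonic anhydrase that turns carbon dioxide into bicarbonate and protons outside the cell, was far lower at the high dose of Coptidis Rhizoma, whereas VEGFA, the secreted growth factor of blood vessels, was higher at each dose than at the one before. CA9 stood at 65.6, 71.2 and 83.2 CPM in vehicle, 54.1 and 58.7 at 12.8 µg/mL, 50.2 and 50.8 at 64 µg/mL and 13.0 and 15.4 at 320 µg/mL. The high-dose pair lay under all other libraries, and most of the difference stood between 64 and 320 µg/mL. VEGFA stood at 67.1, 67.6 and 71.1 CPM in vehicle, 84.6 and 87.2 at 12.8 µg/mL, 132 in both libraries at 64 µg/mL and 478 and 492 at 320 µg/mL. No dose groups of VEGFA overlapped. The log2 difference of high against low dose was -1.99 ± 0.17 (SE) for CA9 and 2.50 ± 0.06 (SE) for VEGFA, that is 0.251 and 5.65 times the low-dose level. CA9 differed little between low and medium dose, at -0.16 ± 0.155 on the log2 scale for medium against low, where VEGFA differed by 0.62 ± 0.06.

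**Figure D1:**
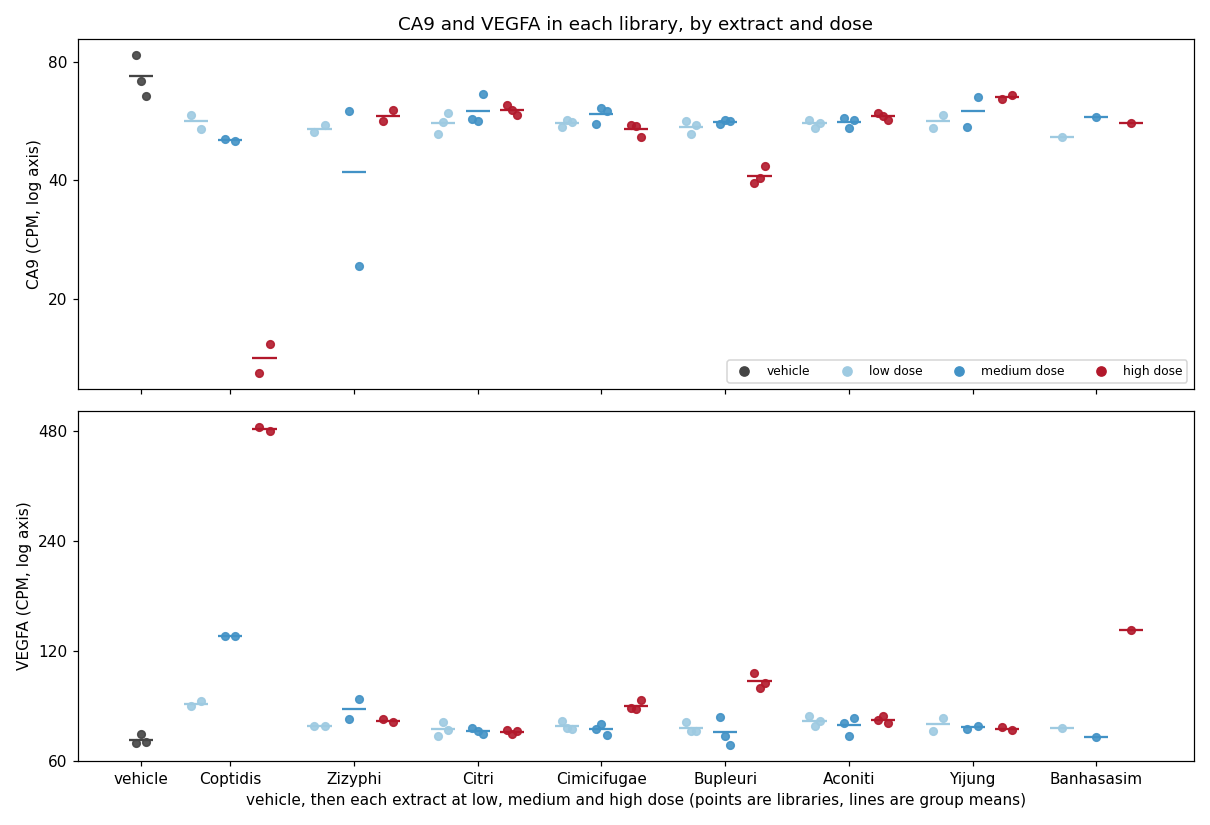
CA9 (top) and VEGFA (bottom) in CPM on log axes, with a point for each library and a line at each group mean, for vehicle and then each extract at low, medium and high dose. The high-dose Coptidis Rhizoma libraries are lowest for CA9, at 13.0 and 15.4 CPM, and highest for VEGFA, at 478 and 492 CPM.

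The other members divided in the same contrast. ADM, a peptide that widens blood vessels, was at 6.00 and 6.15 CPM at 320 µg/mL and 2.98 and 3.13 CPM at 12.8 µg/mL of Coptidis Rhizoma. NDRG1, a stress-responsive gene linked to differentiation, was at 40.2 and 43.1 CPM at high dose and 13.5 and 14.7 CPM at low dose. EGLN3, one of the prolyl hydroxylases and itself a HIF target, was at 14.0 and 15.3 CPM at high dose and 8.95 and 10.4 CPM at low dose. These genes had their highest group means of all 25 groups at high-dose Coptidis Rhizoma, with high-against-low log2 differences of 0.99 for ADM, 1.56 for NDRG1 and 0.61 for EGLN3. At medium dose, where VEGFA already stood at 132 CPM, their libraries overlapped those of vehicle. Their log2 differences from vehicle there were 0.10 ± 0.171 (ADM), 0.0024 ± 0.223 (NDRG1) and -0.14 ± 0.12 (EGLN3), each with its SE.

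Both metabolic switches of the set were lower at high dose. PFKFB4, which sets the level of the fructose bisphosphate that drives glycolysis, stood at 1.92 and 1.95 CPM at high dose and 3.64 and 4.85 CPM at low dose of Coptidis Rhizoma, a log2 difference of -1.12 ± 0.244. PDK1, the kinase that shuts off pyruvate dehydrogenase, stood at 20.0 and 21.2 CPM at high dose and 28.3 and 30.3 CPM at low dose. PDK1 did not follow the dose in 1 direction: its vehicle libraries were at 22.3, 23.3 and 26.0 CPM, its low-dose libraries at 28.3 and 30.3, its medium-dose libraries at 33.5 and 34.1, and its high-dose libraries at 20.0 and 21.2. Its level was thus highest at 64 µg/mL and lowest at 320 µg/mL.

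P4HA1, the catalytic subunit of collagen prolyl hydroxylase, was above vehicle at every dose. It was at 38.0 and 40.9 CPM at high dose, 34.7 and 35.6 CPM at low dose and 29.5, 30.3 and 30.7 CPM in vehicle. P4HA1 also lay above the highest vehicle library in all 51 libraries of the other 7 extracts. BNIP3, a mitophagy receptor of the outer mitochondrial membrane, was at 3.50 and 4.02 CPM at high dose and 2.58 and 2.85 CPM at low dose. ANKRD37, an ankyrin repeat gene, was at 0.625 and 0.826 CPM at high dose and 0.489 and 0.977 CPM at low dose, and these ranges overlapped. A level of 3 counts equalled 0.0817 to 0.166 CPM, so ANKRD37 rests on few reads. By the sign of the log2 difference alone, with no test, 6 of the 10 members were above 0 and 4 below it at high against low dose, and 48.5% of all genes were above 0 and 51.4% below it. The members were chosen from this contrast, and nothing is read from the counts.

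**Figure D2:**
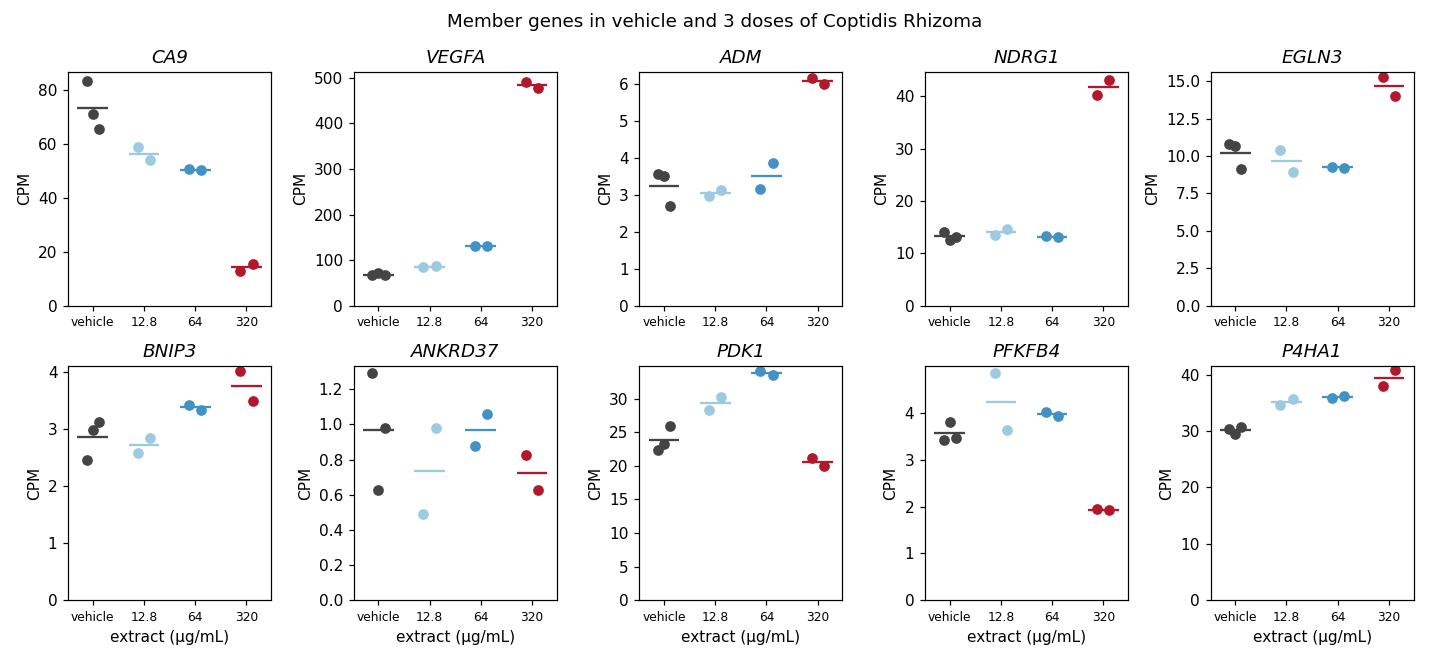
Each of the 10 genes in CPM, on axes from 0, in vehicle and at 12.8, 64 and 320 µg/mL of Coptidis Rhizoma, with a point for each library and a line at the group mean. VEGFA is higher at each dose, NDRG1, ADM and EGLN3 are high only at 320 µg/mL (NDRG1 at 40.2 and 43.1 CPM), and PDK1 is highest at 64 µg/mL, at 33.5 and 34.1 CPM.

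Levels of different genes were compared per kilobase of exon, using the joined exons of all transcripts in GENCODE 29, which understates genes with many long isoforms. In vehicle cells CA9 was the highest of the set at 43.9 CPM per kilobase, P4HA1 was at 9.76, VEGFA at 4.75, and the other members lay between 0.374 (ANKRD37) and 1.6 (PDK1). At high-dose Coptidis Rhizoma the order turned, with VEGFA at 33.6 CPM per kilobase and CA9 at 8.50. The transcripts of CA9 overlap 643 exon bases of ARHGEF39 on the opposite strand, and those of ANKRD37 overlap 909 of UFSP2. VEGFA, PDK1 and P4HA1 overlap 188, 445 and 47 bases of other transcripts on the opposite strand. PFKFB4 overlaps 289 bases of UCN2 on the same strand, which counting by strand cannot separate. The kit keeps strand, but no source used here gives the strand setting of the counting, so reads of the overlapping genes may be in these values.

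The question whether the members follow the dose of the other 7 extracts was tested between high and low dose within library sets. In 3 of 70 tests a member passed an adjusted p of 0.05 (edgeR quasi-likelihood test, Benjamini-Hochberg over 16022 genes), against 2.66% of all such tests over all genes. The 3 were VEGFA, higher with Bupleuri Radix and with Banhasasim-tang, and CA9, lower with Bupleuri Radix. The other 8 members gave 0 calls in 56 tests with edgeR and 0 with DESeq2. Under other edgeR settings NDRG1 passed with Bupleuri Radix and with Yijung-tang, as given below. P4HA1 passed with Yijung-tang when its groups were fitted alone (0.21, edgeR adjusted p = 0.048), where 1.97% of all genes passed. In the main edgeR fit 5 of the 56 had an unadjusted p under 0.05. Of all 16022 genes, 331 (Zizyphi Fructus) to 3844 (Bupleuri Radix) had such a p per extract, so nothing is read from the 5.

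With Bupleuri Radix, VEGFA was at 95.1, 98.2 and 104 CPM at 310 µg/mL, against 72.6, 72.6 and 76.6 CPM at 12.4 µg/mL. The groups did not overlap, as for 37.9% of all genes in this contrast, and the log2 change was 0.42 ± 0.0498 (SE, n = 3 each, edgeR adjusted p = 2e-08), the same call under all 14 alternative settings tried. At 62 µg/mL VEGFA was at 66.3, 70.1 and 79.0 CPM, within reach of the low dose. CA9 was at 39.4, 40.5 and 43.4 CPM at 310 µg/mL, against 52.4, 55.1 and 56.6 CPM at 12.4 µg/mL, again without overlap. Its log2 change was -0.41 ± 0.128 (edgeR adjusted p = 0.024). That call was lost when Bupleuri Radix high replicate 1 or 2, or low replicate 1 or 3, was left out, with a change between -0.45 and -0.38 and an adjusted p of up to 0.096. In this contrast 2 of 10 members and 12.9% of all genes passed. NDRG1 stood at 18.6, 20.2 and 25.1 CPM at high dose and 13.9, 14.3 and 20.5 CPM at low dose, groups that overlapped, and its log2 change of 0.39 ± 0.193 did not pass (edgeR adjusted p = 0.21). It did pass without a filter on low counts (0.0014) and with a replicate block by library set (edgeR adjusted p = 0.046).

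With Banhasasim-tang, whose groups hold 1 library each, VEGFA was at 137 CPM at 500 µg/mL, against 73.8 CPM at 20 µg/mL, and 69.9 CPM at 100 µg/mL. The log2 change was 0.89 ± 0.0861 (edgeR adjusted p = 9.6e-10), where each single library is taken to vary as replicated groups do. It was the 1 member called of 10, where 1.73% of all genes passed. CA9 was at 55.9 CPM at high dose and 51.4 CPM at low dose, so the CA9 value was not lower where VEGFA was higher. Its log2 change was 0.12 ± 0.218.

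In the other extracts VEGFA varied little, and the share of all genes that passed was 0.874% for Cimicifugae, 2.71% for Aconiti, 0.206% for Yijung-tang, 0.144% for Citri and 0% for Zizyphi Fructus. With Cimicifugae Rhizoma it was at 83.3, 83.6 and 88.0 CPM at 500 µg/mL, against 73.2, 74.0 and 77.0 CPM at 20 µg/mL, a log2 change of 0.19 ± 0.0501 that missed the threshold (edgeR adjusted p = 0.064). These groups did not overlap, as for 17.8% of all genes, and the change passed with DESeq2 (adjusted p = 0.019) and without Zizyphi Fructus medium replicate 3 (edgeR adjusted p = 0.0098). The log2 changes of VEGFA for Zizyphi Fructus, Citri, Aconiti and Yijung-tang lay between -0.04 and 0.05, with standard errors of 0.05 to 0.0612. Those of CA9 in all 6 extracts other than Coptidis and Bupleuri lay between -0.05 and 0.20, with standard errors of 0.125 to 0.218, and did not pass. ADM had a log2 change of 0.38 ± 0.156 with Aconiti and 0.48 ± 0.269 with Banhasasim-tang, and neither passed. NDRG1 stood at 21.4 and 26.2 CPM at high dose and 16.0 and 16.6 CPM at low dose of Yijung-tang, a log2 change of 0.55 ± 0.234 (edgeR adjusted p = 0.66). It passed when these groups were fitted alone (edgeR adjusted p = 0.0066) or without a filter on low counts (0.0019).

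**Figure D3:**
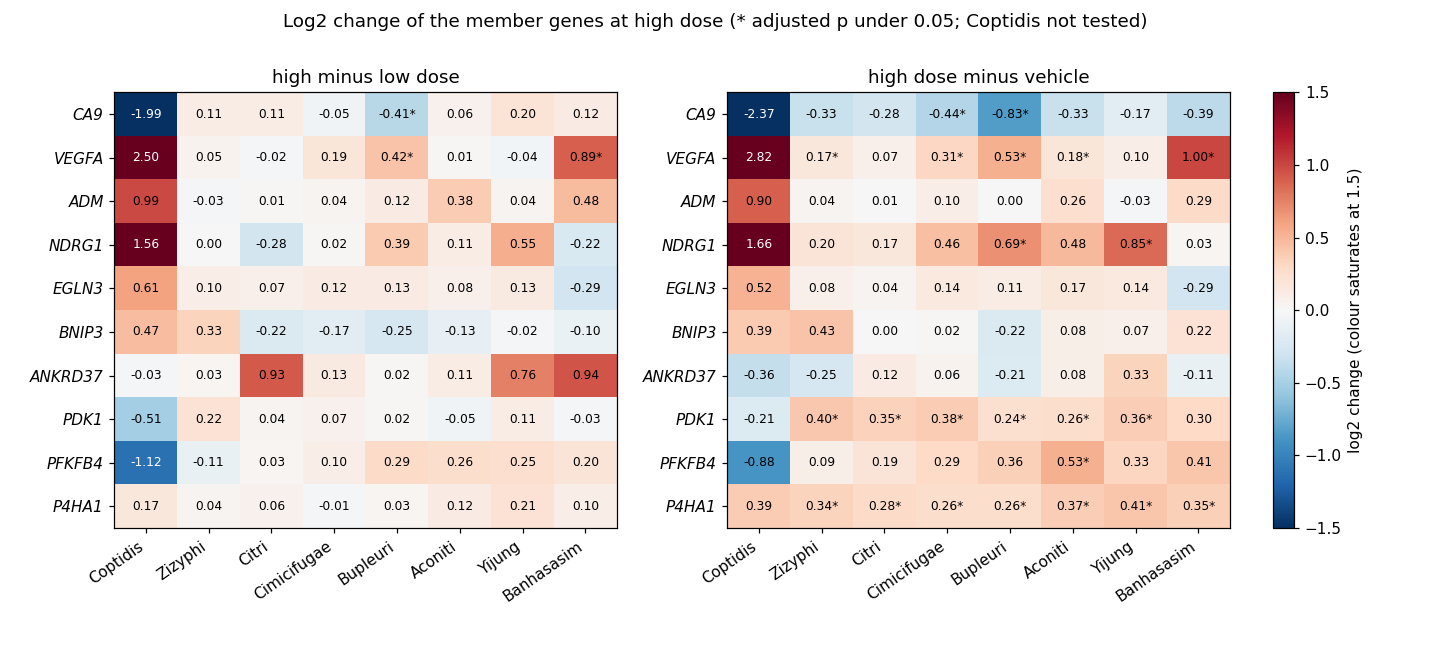
Log2 changes of the 10 genes (rows) at high dose against low dose (left) and against vehicle (right) for each extract (columns). An asterisk marks an adjusted p under 0.05, and none is set for Coptidis. On the left the asterisks stand at CA9 and VEGFA of Bupleuri (-0.41 and 0.42) and VEGFA of Banhasasim (0.89), and on the right most stand in the rows of PDK1, P4HA1 and VEGFA.

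Extracts of a set were compared with each other at high dose, and 4 of 30 tests of members passed, against 7.86% over all genes. By pair, 2 members passed between Bupleuri and Aconiti (21.1% of all genes), 1 between Banhasasim-tang and Yijung-tang (1.57%) and 1 between Citri and Cimicifugae (0.905%). VEGFA was higher with Banhasasim-tang than with Yijung-tang, at 137 CPM against 72.7 and 74.2 CPM, a log2 difference of 0.90 ± 0.0721 (edgeR adjusted p = 3.1e-12). VEGFA was also higher with Bupleuri Radix than with Aconiti, whose libraries stood at 76.0, 77.7 and 79.8 CPM, by 0.35 ± 0.0497 (edgeR adjusted p = 8.6e-07). CA9 was lower with Bupleuri Radix than with Aconiti, whose libraries stood at 56.9, 58.1 and 59.3 CPM, by -0.50 ± 0.127 on the log2 scale (edgeR adjusted p = 0.0033). The doses were 310 µg/mL of Bupleuri Radix and 500 µg/mL of Aconiti, so these values compare unequal doses. VEGFA was lower with Citri than with Cimicifugae, at 71.1, 72.3 and 72.8 CPM against 83.3, 83.6 and 88.0 CPM, by -0.24 ± 0.0501 (edgeR adjusted p = 0.0054). That last call was lost without Cimicifugae high replicate 3 and without a filter on low counts, where its adjusted p reached 0.21.

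Whether the high-against-low change itself differed between the extracts of a set was tested after the values had been seen. For VEGFA it was larger with Banhasasim-tang than with Yijung-tang by 0.93 ± 0.105 on the log2 scale (edgeR adjusted p = 1.3e-07), where 0.462% of all genes passed, and larger with Bupleuri than with Aconiti by 0.41 ± 0.0705 (edgeR adjusted p = 7.4e-05), where 8.52% did. For CA9 the difference between Bupleuri and Aconiti was -0.47 ± 0.179 and did not pass (edgeR adjusted p = 0.1). It passed without Zizyphi Fructus medium replicate 3, at -0.47 (edgeR adjusted p = 0.00016), and without a filter on low counts (0.0016). Between Citri and Cimicifugae the difference for VEGFA was -0.21 ± 0.0708 (edgeR adjusted p = 0.6), where 0.2% of all genes passed.

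Against vehicle, CA9 lay lower and P4HA1 and PDK1 higher in most libraries. In the 51 libraries of the 7 extracts other than Coptidis Rhizoma, CA9 lay below the lowest vehicle library in 49, with a lowest value of 24.3, a median of 56.4 and a highest of 66.1 CPM, against 65.6, 71.2 and 83.2 CPM in vehicle. P4HA1 lay above the highest vehicle library in all 51, with 31.7, 36.4 and 54.9 CPM as lowest, median and highest, against 29.5, 30.3 and 30.7 CPM in vehicle. PDK1 lay above in 50 of 51, at 25.1 to 34.6 CPM against 22.3, 23.3 and 26.0 CPM in vehicle. These were the members with at least 90% of libraries on 1 side of vehicle, 2 above and 1 below, where 7.9% of all genes were above and 7.88% below by that measure. VEGFA lay above vehicle in 44, NDRG1 in 39, PFKFB4 in 39, BNIP3 in 25, EGLN3 in 18 and ADM in 12 of the 51, while ANKRD37 lay below it in 10.

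The log2 difference of CA9 between low dose and vehicle lay between -0.51 (Banhasasim-tang) and -0.38 (Yijung-tang) over the 7 extracts, and it passed with 4 of them, Citri (where 14.1% of all genes passed), Cimicifugae (13.6%), Bupleuri (14.5%) and Aconiti (14.5%). With Zizyphi Fructus, Yijung-tang and Banhasasim-tang the edgeR adjusted p was 0.054, 0.088 and 0.11, where 6.04%, 7.61% and 3.22% of all genes passed. As vehicle is a set of its own, the extract and the library set cannot be told apart here, and every comparison shares the same 3 vehicle libraries.

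**Figure D4:**
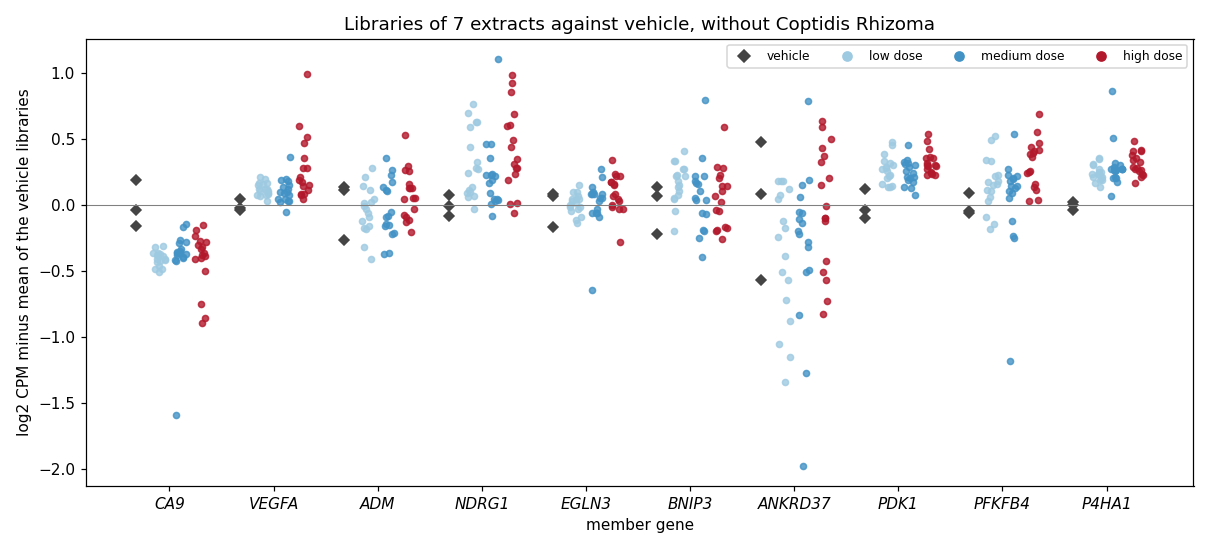
Log2 CPM of each library minus the mean of the vehicle libraries, for the 10 genes, with vehicle (diamonds) and the low, medium and high doses of the 7 extracts other than Coptidis Rhizoma (circles). CA9 lies below vehicle in 49 of 51 libraries and P4HA1 above it in 51, and 1 library, Zizyphi Fructus medium replicate 3, lies far from the rest for CA9, P4HA1, PFKFB4 and EGLN3.

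At high dose 23 of 70 tests against vehicle passed, against 14% over all genes, 21 of them higher and 2 lower. P4HA1 was higher with all 7 extracts, by 0.26 to 0.41 on the log2 scale, and PDK1 with 6, by 0.24 to 0.40. VEGFA was higher with 5, by 0.17 (Zizyphi Fructus, edgeR adjusted p = 0.05 when rounded) to 1.00 (Banhasasim-tang). CA9 was lower with Bupleuri Radix, with a log2 change of -0.83 ± 0.127 (edgeR adjusted p = 2.7e-06), and with Cimicifugae Rhizoma, with -0.44 ± 0.126 (edgeR adjusted p = 0.012). Without Zizyphi Fructus medium replicate 3, CA9 also passed with Aconiti (-0.33), Banhasasim-tang (-0.39), Citri (-0.28) and Zizyphi Fructus (-0.33), at edgeR adjusted p of 4.8e-05 to 0.0013. NDRG1 was higher with Yijung-tang, at 21.4 and 26.2 CPM against 12.5, 13.2 and 14.0 CPM in vehicle, and with Bupleuri Radix, at 18.6, 20.2 and 25.1 CPM. PFKFB4 was higher with Aconiti, at 4.60, 5.23 and 5.76 CPM against 3.43, 3.46 and 3.80 CPM in vehicle, by 0.53 ± 0.176 (edgeR adjusted p = 0.032). The CA9 call with Cimicifugae was lost without vehicle replicate 1 or Cimicifugae high replicate 3 (edgeR adjusted p up to 0.13). That of NDRG1 was lost without replicate 1 of the high dose, with Yijung-tang (up to 0.18) and with Bupleuri Radix (up to 0.059). That of PFKFB4 was lost without any 1 of the vehicle libraries or without Aconiti high replicate 1 or 2 (up to 0.14).

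By extract, the members called against vehicle were 5 of 10 for Bupleuri Radix (27% of all genes), 4 for Aconiti (17.3%), 4 for Cimicifugae (18%), 3 for Yijung-tang (7.65%), 3 for Zizyphi Fructus (6.9%), 2 for Citri (13.2%) and 2 for Banhasasim-tang (7.6%). The total was 12 without vehicle replicate 1 and 15 without vehicle replicate 2, against 23 with all libraries. Vehicle replicate 1 had the highest CA9 of all libraries, at 83.2 CPM, but most calls lost without it were of P4HA1, PDK1, VEGFA and PFKFB4. It was 31 without Zizyphi Fructus medium replicate 3, where the share of all tests called was 28.1%. Calls kept under every alternative tried were VEGFA with Banhasasim, Bupleuri and Cimicifugae, CA9 with Bupleuri, PDK1 with Citri and Cimicifugae, and P4HA1 with Aconiti.

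Zizyphi Fructus medium replicate 3 had CA9 at 24.3 CPM, against 59.9 CPM in its group mate. In the same library P4HA1 was at 54.9 CPM, against 36.6 CPM in the mate, PFKFB4 at 1.57 against 4.12 CPM, EGLN3 at 6.52 against 11.8 CPM, BNIP3 at 4.95 against 3.18 CPM and VEGFA at 88.4 against 77.9 CPM. Its ADM, at 2.51 CPM, was below that of its mate at 3.05 CPM. CA9, PFKFB4, EGLN3 and ADM were thus lower than in the mate, as was ANKRD37, at 0.236 against 0.807 CPM. P4HA1, BNIP3 and VEGFA were higher, as were NDRG1, at 18.3 against 15.4 CPM, and PDK1, at 32.7 against 29.1 CPM. Without this library CA9 in the 7 extracts had a lowest value of 39.4 CPM, in Bupleuri high replicate 1, and P4HA1 a highest of 42.9 CPM.

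The order of the 25 group means shows how far these extremes stand from the rest. For CA9 the highest was vehicle (73.3 ± 9.0 CPM, SD, n = 3), then Yijung-tang high (64.9 ± 1.2, n = 2), whose highest library at 65.7 CPM reached the lowest of vehicle at 65.6. From Citri high (60.4 ± 1.8 CPM, n = 3) down to Cimicifugae high (54.0 ± 2.1 CPM, n = 3), each group overlapped its neighbours, and Banhasasim low (51.4 CPM, n = 1), Coptidis medium (50.5 ± 0.44 CPM, n = 2), Zizyphi medium (42.1 ± 25 CPM, n = 2), Bupleuri high (41.1 ± 2.1 CPM, n = 3) and Coptidis high (14.2 ± 1.7 CPM, n = 2) followed. For VEGFA the order ran from Coptidis high (485 ± 9.8 CPM), Banhasasim high (137), Coptidis medium (132 ± 0.12) and Bupleuri high (99.1 ± 4.5) to Coptidis low (85.9 ± 1.8) and Cimicifugae high (85 ± 2.7), which overlapped. Below Zizyphi medium (83.1 ± 7.4 CPM) the groups lay between 77.9 and 69.9 CPM, each overlapping its neighbours, with vehicle lowest at 68.6 ± 2.2 CPM. NDRG1 was the member with wide replicates in several groups, for example 15.5 and 28.5 CPM in Yijung-tang medium.

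**Figure D5:**
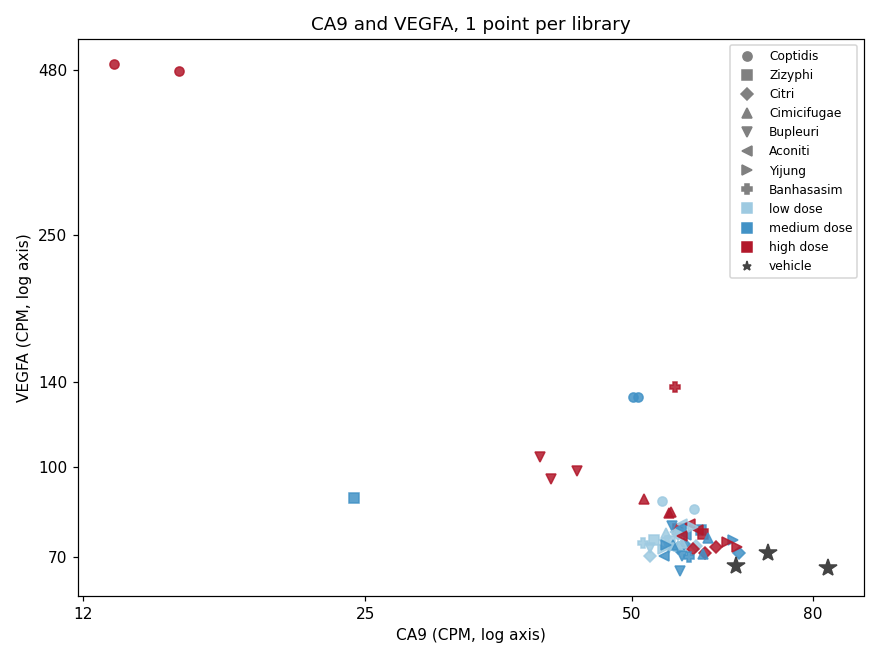
VEGFA against CA9 in each library, both in CPM on log axes, with symbols for extracts and colours for doses. The high-dose Coptidis Rhizoma libraries lie at top left (CA9 13.0 and 15.4 CPM), the Bupleuri high libraries are between them and the main cloud, and Banhasasim high has a VEGFA of 137 CPM at a CA9 of 55.9 CPM.

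Across the 25 group means of log2 CPM, CA9 and VEGFA had a Pearson correlation of -0.89 (Spearman -0.64), and across the 22 groups without Coptidis Rhizoma -0.39 (Spearman -0.57). Leaving out Zizyphi medium too gave -0.43 over 21 groups. The points share library sets and a vehicle, and the value over 25 groups leans on the Coptidis groups. Among 12106 genes with a mean log2 CPM of at least 1, those most like CA9 over 25 groups were RDM1, ASF1B, LRRC20, SHMT1 and SPC24 (r = 0.981 to 0.971), and over 22 groups IGFBP2, TFF3, CDC25C, ASF1B and WDR54 (r = 0.914 to 0.897). Those most like VEGFA were GRB10, WARS1, SARS1, RNF41 and TMEM268 over 25 groups (r = 0.991 to 0.984), and WARS1, GRB10, VLDLR, SARS1 and ASNS over 22 (r = 0.93 to 0.914). The Spearman values of all these lists were lower, at 0.588 to 0.765 and 0.486 to 0.737 for CA9 and at 0.515 to 0.755 and 0.196 to 0.639 for VEGFA, over 25 and 22 groups in turn. The lists over 22 groups were not repeated without Zizyphi medium, nor without Banhasasim high, whose VEGFA rests on 1 library.

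Genes around the members were counted in lists drawn up for this set. EGLN1, EGLN2, CA12, BNIP3L, P4HA2 and PFKFB3 each stand in the list of paralogs and in another list, so these counts are not independent. Counts for Coptidis Rhizoma take the sign of the log2 difference of high against low dose, with no test. Of all genes, 48.5% were above 0 and 51.4% below it by this measure. All 10 measured HIF subunits and regulators were above 0 there, with a median log2 difference of 0.52 (all genes -0.02). EPAS1, which encodes a HIF alpha subunit, was at 85.9 ± 0.47 CPM at high dose and 35.2 ± 2.8 CPM at low dose (SD, n = 2 each). In the tested extracts, 1 of these 10 genes passed between high and low dose, EGLN1 with Bupleuri Radix (62.8 ± 1.2 CPM at high and 54.2 ± 2.7 CPM at low dose, edgeR adjusted p = 0.029), where 6.34% of all genes rose, so this count is near the share over all genes.

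The 17 measured genes of glucose uptake and glycolysis among HIF targets were mostly lower with Coptidis Rhizoma, and some rose with Bupleuri Radix. With Coptidis Rhizoma 2 were above 0 and 15 below it, with a median log2 difference of -0.33. LDHA, which makes lactate, was at 517 ± 1.5 CPM at high dose and 969 ± 18 CPM at low dose, and the glucose transporter SLC2A1 was higher, at 688 ± 5.2 and 498 ± 1.3 CPM. With Bupleuri Radix 7 of the 17 rose, where 6.34% of all genes rose, with a median log2 change of 0.20 (all genes -0.01). ENO2, an enolase, rose by 0.71 ± 0.0818 (edgeR adjusted p = 1.3e-08), and SLC2A1 by 0.42 ± 0.0943 (edgeR adjusted p = 0.0011). With Banhasasim-tang 1 rose, PFKP, a phosphofructokinase (0.37 ± 0.0973, edgeR adjusted p = 0.037, where 1.04% of all genes rose).

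Of 28 other measured HIF targets, 17 were above 0 and 11 below it for Coptidis Rhizoma, with a median log2 difference of 0.12. DDIT4, an inhibitor of mTOR signalling, was at 271 ± 7.3 CPM at high and 28.6 ± 0.44 CPM at low dose, and the chemokine receptor CXCR4 at 2.39 ± 0.038 and 13.7 ± 0.044 CPM. The collagen lysyl hydroxylase PLOD2 was also lower, at 19.6 ± 0.11 CPM at high and 54.0 ± 1.2 CPM at low dose. With Bupleuri Radix 7 rose and 3 fell, where 6.34% of all genes rose and 6.59% fell. CXCR4 was among those that fell, by 0.33 (SE 0.0684, edgeR adjusted p = 0.00056). DDIT4 rose with Banhasasim-tang, at 92.9 CPM at high dose against 21.7 CPM at low dose. VLDLR, a lipoprotein receptor, also rose there, at 9.71 against 4.43 CPM. In all, 3 of the 28 rose with Banhasasim-tang, where 1.04% of all genes did.

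Of 21 measured paralogs of the members, 12 were above 0 and 9 below it for Coptidis Rhizoma. The membrane carbonic anhydrase CA12 was lower at high than at low dose of Coptidis Rhizoma, like CA9, at 102 ± 0.26 and 210 ± 6.5 CPM. ADM2, the paralog of ADM, was at 48.2 ± 2.1 CPM at high and 4.41 ± 0.0096 CPM at low dose, and NDRG2 lay opposite to NDRG1, at 3.50 ± 0.065 and 11.4 ± 0.4 CPM. With Bupleuri Radix 7 of 21 measured paralogs rose and 2 fell, where 6.34% of all genes rose and 6.59% fell. ADM2 rose there by 0.93 ± 0.157 (edgeR adjusted p = 2.4e-05), the carbonic anhydrase CA2 fell, at 12.6 ± 0.58 CPM at high and 18.2 ± 0.51 CPM at low dose (edgeR adjusted p = 0.0013), and PDK4 rose by 0.67 ± 0.0987 (edgeR adjusted p = 2.2e-06) where PDK1 did not pass. With Banhasasim-tang ADM2 was the 1 paralog that rose, by 2.21 ± 0.245 (edgeR adjusted p = 3.4e-08), where 1.04% of all genes rose.

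Of 13 measured receptors and partners, 6 were above 0 and 7 below it for Coptidis Rhizoma. The bicarbonate transporter SLC4A4 was at 1.74 ± 0.074 and 10.1 ± 0.58 CPM, and the VEGF co-receptor NRP1 at 45.8 ± 0.86 and 28.2 ± 0.96 CPM. With Aconiti 2 of the 13 fell between high and low dose, where 2.23% of all genes did. SLC4A4 fell by 0.63 (SE 0.1, edgeR adjusted p = 3.2e-05) and NRP1 fell by 0.41 (SE 0.0658, edgeR adjusted p = 3.8e-05). With Bupleuri Radix 3 rose and 2 fell, where 6.34% of all genes rose and 6.59% fell. RAMP1, a receptor activity-modifying protein, was among those that fell, at 1.3 ± 0.11 CPM at high and 3.05 ± 0.21 CPM at low dose (edgeR adjusted p = 4.9e-05).

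The list of 20 measured ATF4-linked genes, which shares DDIT4 and VLDLR with the HIF targets and was drawn up with earlier results of these data known, held genes of amino acid synthesis and stress. All 20 were above 0 for Coptidis Rhizoma, where 48.5% of all genes were, with a median log2 difference of 2.55. With Banhasasim-tang 17 rose (1.04% of all genes rose), with a median change of 1.07 (all genes 0.01). Bupleuri Radix had 15 that rose (6.34% of all genes rose), with a median of 0.56. Cimicifugae Rhizoma had 6, with a median of 0.30 (0.437% of all genes rose). With Aconiti, Citri, Yijung-tang and Zizyphi Fructus the medians lay between -0.03 and 0.10. CHAC1, a glutathione-degrading enzyme of the stress response, was at 24.7 CPM at high and 3.50 CPM at low dose of Banhasasim-tang, and at 8.12 ± 0.27 and 3.17 ± 0.35 CPM with Bupleuri Radix. The part of this pathway in the VEGFA values was not tested.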

How the data were processed

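Per the labels' protocols, the libraries come from the MGIEasy RNA Directional kit, sequenced from both ends at 100 bp. Tools named in the submitters' processing notes are STAR 2.7.3a, RSEM 1.3.3, FastQC 0.11.9 and Trim Galore 0.6.5, with the build GRCh38. No source used here names the annotation. The authors deposited expected counts for each gene, unscaled. Of the table's 270 columns, 210 belong to samples not analysed here. The values were 91% whole and were rounded, which changed a library total by at most 0.00022%.

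The filter kept the 16022 genes that reached 0.5 CPM in 3 or more libraries. In edgeR 4.0.16 (R 4.3.3), TMM scaling and a quasi-likelihood model with 25 group means were fitted to all 60 libraries (35 residual degrees of freedom, common dispersion 0.00613). P-values were adjusted by Benjamini-Hochberg over all tested genes of each comparison, at a threshold of 0.05. A standard error is the log2 change divided by the root of F. CPM values use TMM scaling. Alternatives were DESeq2 1.42.0, its size factors, other filters, compared groups fitted alone, replicate blocks and leaving out libraries. The test of differences between extracts was added after the data had been seen. No pair of libraries in a group agreed within sampling noise.

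The members and lists were chosen with earlier results of these data known. All 10 members are described, and of each list up to 3 genes in each direction with the largest change past the threshold could be named. The same threshold picked the list genes that could be named for Coptidis Rhizoma, for which no p-value is given. The 5 genes most like CA9 and VEGFA were taken by Pearson correlation of group means. Floors of 3 counts cover counting error only. A reference table gave symbols to 93.2% of IDs. Coordinates and exon lengths are from GENCODE 29, and promoter sequences are from RefSeq (GRCh38.p14).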

Additional observations from a re-analysis of the deposited data

Results flagged for a closer look

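VEGFA changed by different amounts in extracts of the same library set. Its high-against-low change was larger with Banhasasim-tang than with Yijung-tang by 0.93 on the log2 scale (SE 0.105, edgeR adjusted p = 1.3e-07), with 1 library per dose of Banhasasim-tang and 2 of Yijung-tang. Banhasasim-tang has no spread of its own, so this p rests on the spread of the other groups. It was larger with Bupleuri Radix than with Aconiti by 0.41 (SE 0.0705, edgeR adjusted p = 7.4e-05), with 3 libraries per dose each. Both were singled out because the difference itself passed the test, which was added after the values had been seen.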

How the results depend on the processing

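The counts of members called were 3 (high against low dose), 23 (high dose against vehicle) and 4 (pairs at high dose). No called change reversed its sign under any alternative. Without a filter on low counts the first became 5 (1.12% of all tests, against 2.66%), and with the compared groups fitted alone the third became 7, with CA9, EGLN3 and NDRG1 (-0.82) of Banhasasim-tang against Yijung-tang added, while the share of all tests called was 14.8%, against 7.86%; the cause was not tested. Leaving out 1 library gave 2 to 3, 12 to 23 and 3 to 4. Without Zizyphi Fructus medium replicate 3 the counts were 4, 31 and 5, while the share of all tests called against vehicle was 28.1%, against 14% with it. Of the 23 calls against vehicle, 6 were lost with the compared groups fitted alone, and 9 alternatives ended the VEGFA call with Zizyphi Fructus. With the replicate number as a block the counts were 3, 23 and 4, with P4HA1 of Banhasasim-tang lost and its PDK1 gained, and with the block by library set 4 and 4 for the comparisons within sets. In the 4 extracts with 3 libraries per dose, same-numbered high and low libraries deviated together with correlations of 0.04 to 0.32, other numbers with -0.24 to 0.061. There 12 of 12 high libraries correlated best with their own number, a hint from the data and not from the design. Extracts with 2 libraries per dose had same-number correlations of 0.016 (Zizyphi Fructus), 0.046 (Coptidis Rhizoma) and -0.055 (Yijung-tang). Low counts limit ANKRD37, and groups of 1 library limit Banhasasim-tang.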
